A study of Homo sapiens with 46 samples.

Results

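The genes described here encode the machinery that brings new proteins into the endoplasmic reticulum (ER) and folds them there. The set holds 38 genes chosen by symbol, out of 10707 genes found in the deposited tables of all 4 cell types. By role it has 6 proteins of the signal recognition particle (SRP), 2 subunits of the SRP receptor, 5 translocon genes, 4 genes of the TRAP complex, 5 of signal peptidase, 8 of oligosaccharyltransferase and 8 folding factors. By the place of the protein, 31 carry a signal peptide or a membrane anchor (the ER-directed members), and the 6 SRP proteins stay in the cytosol. SRPRA, a receptor subunit held at the membrane by its partner SRPRB, was put in neither class. All 38 genes were found in each table under 1 Ensembl gene each, and all 38 passed the filter on low counts in each of 16 comparisons.

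As background, SRP binds the signal sequence of a growing chain and hands the ribosome to the SRP receptor on the ER membrane, so the mRNA is held at the membrane by the ribosomes that read it. The SEC61 channel passes the chain, signal peptidase cuts the signal peptide off, oligosaccharyltransferase adds sugar chains, and chaperones and disulfide isomerases in the lumen fold the product. Tail-anchored proteins, whose only membrane span lies at the far end of the chain, are inserted after translation has ended.

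The starting cells were H1, a long-established line of human pluripotent cells (hPSC). RNA was sequenced from them and from ectoderm, endoderm and mesoderm cells made from H1 by a change of medium and collected after 5 days. Endoderm medium held WNT3A and Activin A. Mesoderm medium held VEGF, BMP4 and bFGF, with Activin A on the opening day only, and ectoderm medium held A83-01, PNU-74654 and Dorsomorphin. Each cell type gave 4 fractions, all lysed in buffers with α-amanitin, an inhibitor of RNA polymerase. Cytoplasm is the supernatant after 0.05% NP-40 detergent and a spin over sucrose, and nucleus is RNA from the washed pellet, so it includes whatever else that detergent left in the pellet. Nucleoplasm and chromatin are the soluble and the insoluble part of the pellet after a buffer with urea. The 46 libraries form 16 groups of 3, except that mesoderm nucleoplasm has 1 library. The labels do not say whether libraries of a group came from separate cultures, so p-values measure the spread between these libraries, which may be technical. The series text speaks of actinomycin D, which no label of these libraries names.

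Library totals ran from 4990408 to 21298678 counts. Markers of the labelled cell types were present in part. All 5 pluripotency markers were in the hPSC table, 5 of 6 ectoderm markers in the ectoderm table (not SOX1), 6 of 6 in endoderm and 4 of 7 in mesoderm (not GATA4, MESP1 or TBX20). The endoderm table also held 6 of 7 mesoderm markers. The pluripotency list still summed to 571 to 2636 TPM (a share of the library corrected for transcript length) in the derived cells, against 1949 to 3635 in hPSC. Of that list, though, NANOG was missing from the ectoderm table, SOX2 from the endoderm table and both from the mesoderm table. The fraction labels were borne out only in part. Cytoplasmic control mRNAs were higher in cytoplasm than in nucleus for 6 of 6 genes in hPSC, 4 of 6 in endoderm and 6 of 6 in mesoderm, but for 0 of 6 in ectoderm, where 3 were lower. Nuclear control RNAs went against the labels in hPSC, with 2 of 4 higher in cytoplasm and 1 lower, and in ectoderm, with 4 of 5 higher and 0 lower. They were 1 higher and 2 lower of 4 in endoderm, and 0 higher and 3 lower of 4 in mesoderm. "Cytoplasm" and "nucleus" below therefore mean libraries with those labels. RNA encoded in mitochondria, which lie outside the nucleus, made up 29.4 ± 3.94% of TPM in hPSC nucleus (mean ± SD, n = 3) against 0.688 ± 0.125% in cytoplasm. The share was 16 ± 2.04% against 1.87 ± 0.628% in ectoderm and 24.6 ± 10.5% against 0.594 ± 0.0320% in endoderm. In mesoderm it ran the other way, at 3.93 ± 0.740% in nucleus and 10.6 ± 1.19% in cytoplasm.

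The 2 classes rest on a signal peptide or membrane anchor anywhere in the protein, and the opening codons show only a part of that. Each line gives the first 75 bases of the coding sequence (GENCODE 29, build GRCh38), 5′ to 3′ on the coding strand. Capitals mark codons whose middle base is T, which encode the water-repelling residues Phe, Leu, Ile, Met and Val.
HSPA5: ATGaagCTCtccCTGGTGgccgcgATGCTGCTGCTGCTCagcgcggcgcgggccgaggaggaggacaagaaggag
CALR: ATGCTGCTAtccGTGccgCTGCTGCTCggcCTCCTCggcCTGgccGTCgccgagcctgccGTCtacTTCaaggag
PDIA4: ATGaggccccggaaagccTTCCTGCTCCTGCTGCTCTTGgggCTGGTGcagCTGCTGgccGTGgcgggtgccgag
SEC61A1: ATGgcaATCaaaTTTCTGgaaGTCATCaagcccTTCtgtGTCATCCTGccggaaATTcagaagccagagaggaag
SEC61B: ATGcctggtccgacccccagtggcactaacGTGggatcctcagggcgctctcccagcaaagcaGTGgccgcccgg
SRP9: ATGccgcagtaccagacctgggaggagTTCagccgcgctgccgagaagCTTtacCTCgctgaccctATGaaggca
HSPA5, CALR and PDIA4 have signal peptides, and their capitals stand in a dense run near the start, with 13 such codons of 25 in PDIA4 and 13 in CALR. SEC61B is tail-anchored and has 3 of 25 at its start, where SRP9, a cytosolic SRP protein, has 5. The count alone does not part the classes, since HSPA5 and the SRP proteins SRP14 and SRP54 each have 9. Over whole coding sequences, 29 of 31 ER-directed members reached a mean Kyte-Doolittle hydropathy of 1.6 over 19 codons, a usual mark of a membrane span, and SSR2 and P4HB did not. Of the 6 SRP proteins 0 reached it. PDIA4 lies on chromosome 7 from 149003062 to 149028641 (minus strand), HSPA5 on chromosome 9 from 125234853 to 125241330 (minus strand), CALR on chromosome 19 from 12938578 to 12944489 (plus), SEC61A1 on chromosome 3 from 128051641 to 128071683 (plus), SEC61B on chromosome 9 from 99222064 to 99230615 (plus) and SRP9 on chromosome 1 from 225777813 to 225790466 (plus).

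The main comparison set cytoplasm against nucleus, for the ER-directed members and for the cytosolic SRP proteins. In each of the 4 cell types the medians of the 2 classes lay on opposite sides of 0. Most ER-directed members were lower in cytoplasm than in nucleus, the 7 luminal folding factors most of all by their median, while SRP proteins were mostly higher. A gene was called at a Benjamini-Hochberg adjusted p under 0.05 in edgeR's quasi-likelihood test over all genes, and a log2 change is cytoplasm over nucleus on normalised counts.
In hPSC, 8 of 38 members were called higher and 25 lower, where 35% of all 14160 genes tested were higher and 30.3% lower. Of the 31 ER-directed members 2 were higher and 24 lower, and of the 6 SRP proteins 6 were higher.
In ectoderm the counts were 7 higher and 23 lower, against 27.2% and 26.5% of all genes, with 3 and 21 on the ER side and 4 and 1 among SRP proteins. Under scaling by library totals this split was 10 higher and 19 lower, and over all genes the share of calls that were higher moved from 50.7% to 76.4%.
Endoderm had 11 higher and 22 lower, against 34.3% and 35.4% of all genes, with 5 and 21 on the ER side and 6 and 0 among SRP proteins. Library totals gave 14 higher and 18 lower, with 71.4% of all calls higher in place of 49.2%.
Mesoderm had 10 higher and 17 lower, against 31.8% and 31.4% of all genes, with 6 and 16 on the ER side and 4 and 0 among SRP proteins. On TPM values the mesoderm split was 4 higher and 27 lower, with 10.6% of all calls higher in place of 50.3%, and in hPSC it was 6 higher and 29 lower, with 33.8% in place of 53.6%.

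The median log2 change of the ER-directed members was -1.82 in hPSC. It was -1.05 for ectoderm, -1.91 for endoderm and -1.20 for mesoderm. The median of the SRP proteins was 1.41, 0.79, 2.09 and 0.79 in the same order, and that of all genes tested was within 0.10 of 0. The class gap, defined as the ER-directed median minus the SRP median, was -3.23, -1.84, -3.99 and -1.98. A change of library scaling moves both medians alike, and under library totals the gaps were -3.22, -1.84, -3.89 and -1.99. Library totals shift the median of all genes by 0.07, 0.34, 0.69 and -0.10 in these 4 comparisons, and TPM values by -0.37, 0.29, 0.32 and -1.04. Library 1 of endoderm nucleus stood apart, and without it the endoderm gap was -3.57. Ectoderm, where the control RNAs went against the fraction labels, had the narrowest gap, and their part in it was not tested. The gap was negative in mesoderm too, where the mitochondrial share was higher in cytoplasm than in nucleus. In the other 3 cell types that share was higher in nucleus, and its part in the result was not tested.

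**Figure D1:**
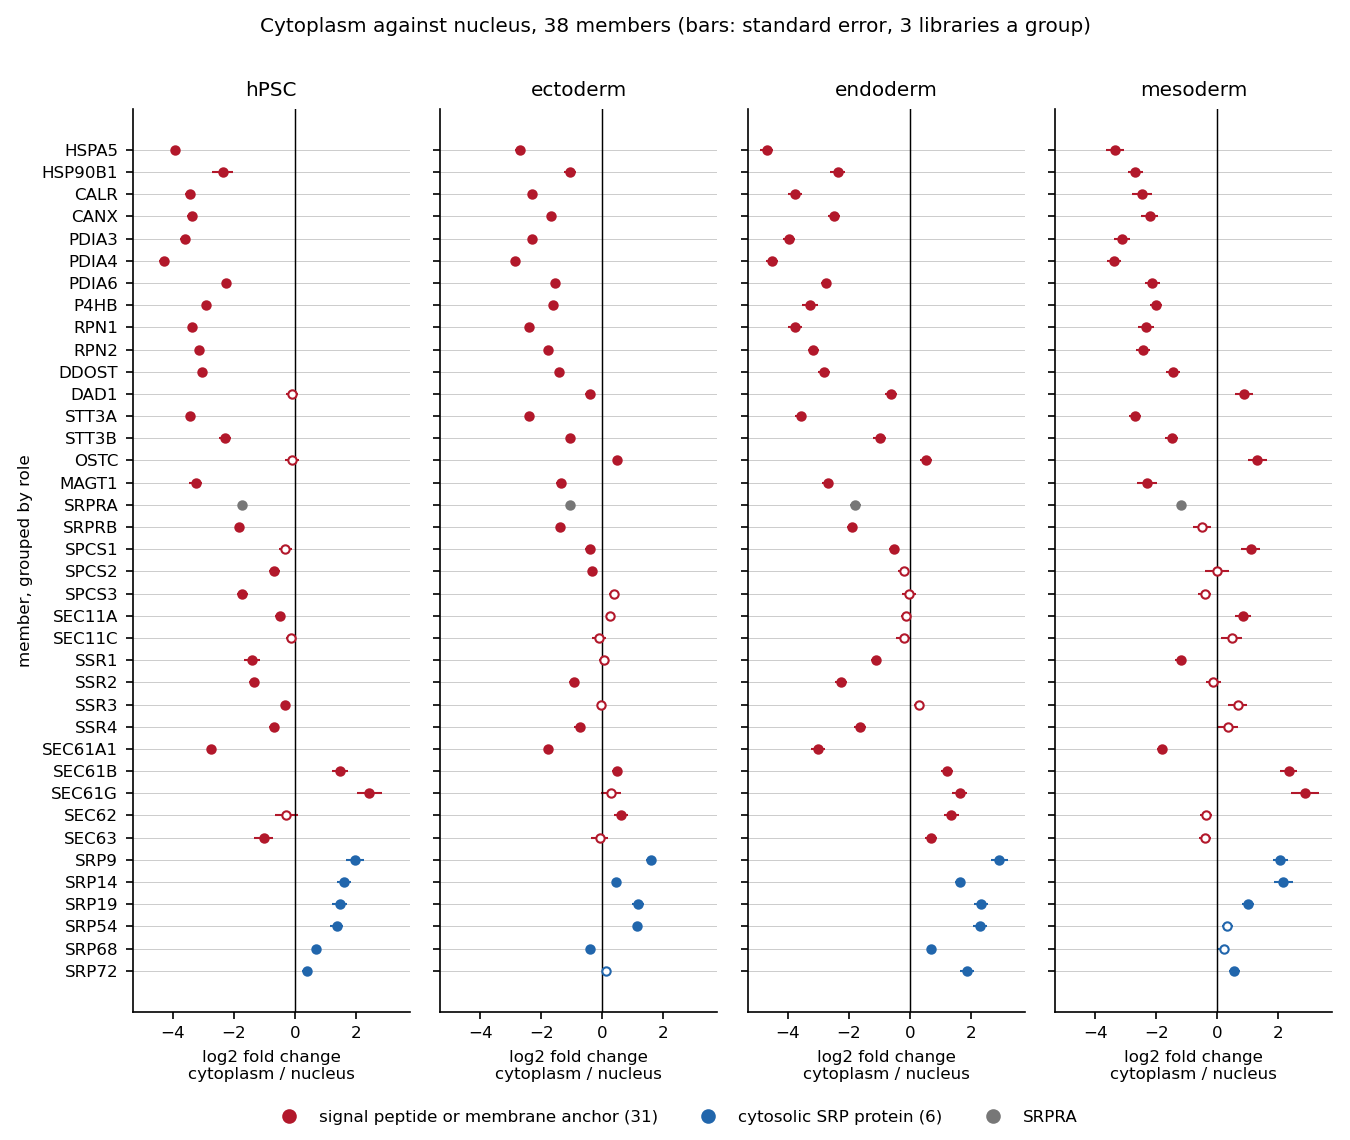
Log2 fold change of cytoplasm over nucleus for the 38 members in 4 cell types, with standard errors from edgeR and 3 libraries in each group. Filled points passed an adjusted p of 0.05, and the 8 folding genes at the top lie left of 0 in each panel while SRP9, SRP14 and SRP19 at the foot lie right of it.

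By gene, 16 members were lower in cytoplasm in all 4 cell types, where 13.6% of the 10424 genes tested in each were. They were the 8 folding factors, SEC61A1, SRPRA and the oligosaccharyltransferase subunits RPN1, RPN2, DDOST, STT3A, STT3B and MAGT1. Members higher in cytoplasm in all 4 numbered 4, namely SEC61B, SRP9, SRP14 and SRP19, where 10.0% of genes were. Under library totals 15 of these 16 and 4 of these 4 kept their call in each cell type, STT3B being lost. On TPM values 14 and 3 did, without STT3B, HSP90B1 and SRP19.

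PDIA4 and HSPA5 had the 2 largest falls of the members in each cell type. Not every folding factor fell so far. In ectoderm HSP90B1 (-1.05) fell less than STT3A, a subunit of oligosaccharyltransferase (-2.41). PDIA4, a disulfide isomerase of the ER lumen, had log2 changes of -4.29 ± 0.18 (SE), -2.86 ± 0.15, -4.52 ± 0.19 and -3.37 ± 0.23 in hPSC, ectoderm, endoderm and mesoderm. The 7 luminal folding factors had medians of -3.44, -2.30, -3.77 and -2.68, and 7 of 7 were called lower in each cell type. The membrane-bound lectin chaperone CANX was lower too, from -3.38 ± 0.16 in hPSC to -1.68 ± 0.12 in ectoderm. PDIA3, the isomerase that partners CALR and CANX, had -3.61 ± 0.14, -2.31 ± 0.12, -3.95 ± 0.19 and -3.13 ± 0.26. PDIA6, an isomerase tied to HSPA5, had -2.25 ± 0.12, -1.54 ± 0.11, -2.74 ± 0.17 and -2.12 ± 0.25, the mildest fall of the luminal factors in hPSC. HSP90B1, the Hsp90 of the lumen, had -2.36 ± 0.35, -1.05 ± 0.20, -2.35 ± 0.24 and -2.68 ± 0.25. PDIA3 and HSP90B1 share bases with genes on the other strand that the tables list (ELL3 and C12orf73 among them), and PDIA3 has a pseudogene copy there.

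HSPA5 (BiP) is the Hsp70 chaperone of the ER lumen and holds the sensors of the unfolded protein response in check. In hPSC its normalised CPM (counts after TMM scaling to a common library size) was 85.6, 82.5 and 87.8 in the cytoplasm libraries and 1099, 1479 and 1325 in the nucleus libraries. In ectoderm it was 354, 272 and 307 in cytoplasm against 2087, 1994 and 2033 in nucleus. Each nucleus library lay far above each cytoplasm library in both cell types. Endoderm had 137, 125 and 111 in cytoplasm and 3524, 3231 and 2884 in nucleus, and mesoderm 161, 132 and 151 and 1541, 1687 and 1307. The cytoplasm level was 15.2-fold lower in hPSC (adjusted p = 1.97e-10), 6.55-fold lower in ectoderm (adjusted p = 1.24e-08), 25.8-fold lower in endoderm (adjusted p = 4.72e-10) and 10.2-fold lower in mesoderm (adjusted p = 5.17e-06). No library of one fraction overlapped the other in any of the 4.

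CALR (calreticulin) binds calcium and new glycoproteins in the ER lumen. Its hPSC values were 152, 215 and 214 normalised CPM in cytoplasm and 1844, 2150.5 and 2300.2 in nucleus. The ectoderm values were 409, 395 and 508 and 1825, 2455 and 2169. Fractions were again apart without overlap, and the gap was narrower in ectoderm, where cytoplasm libraries held more. For endoderm the values were 351, 303 and 323 in cytoplasm and 5823, 3695 and 3826 in nucleus, with library 1 of nucleus well above the other two. Mesoderm gave 214, 266 and 253 and 1256, 1477 and 1334. The log2 changes were -3.44 ± 0.17, -2.30 ± 0.15, -3.77 ± 0.23 and -2.47 ± 0.32, with adjusted p from 1.22e-09 in hPSC to 6.41e-05 in mesoderm.

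P4HB is a protein disulfide isomerase and also a subunit of prolyl 4-hydroxylase. Cytoplasm libraries of hPSC held 146, 169 and 178 normalised CPM and nucleus libraries 1087, 1293 and 1313. Those of ectoderm held 313, 329.7 and 341 and 894, 1208 and 933. The lowest nucleus library was above the highest cytoplasm library in both. Endoderm libraries held 366, 328 and 336 in cytoplasm and 4902, 2363 and 2623 in nucleus, and mesoderm libraries 269, 263 and 294 and 1162, 993 and 1185. Library 1 of endoderm nucleus was high for P4HB as for CALR. P4HB was lower in cytoplasm by log2 changes of -2.90 ± 0.13, -1.63 ± 0.14, -3.26 ± 0.26 and -2.02 ± 0.19. P4HB overlaps an antisense gene that the tables do not list, and the kit named in the labels keeps no strand, so reads of the 2 cannot be told apart.

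**Figure D2:**
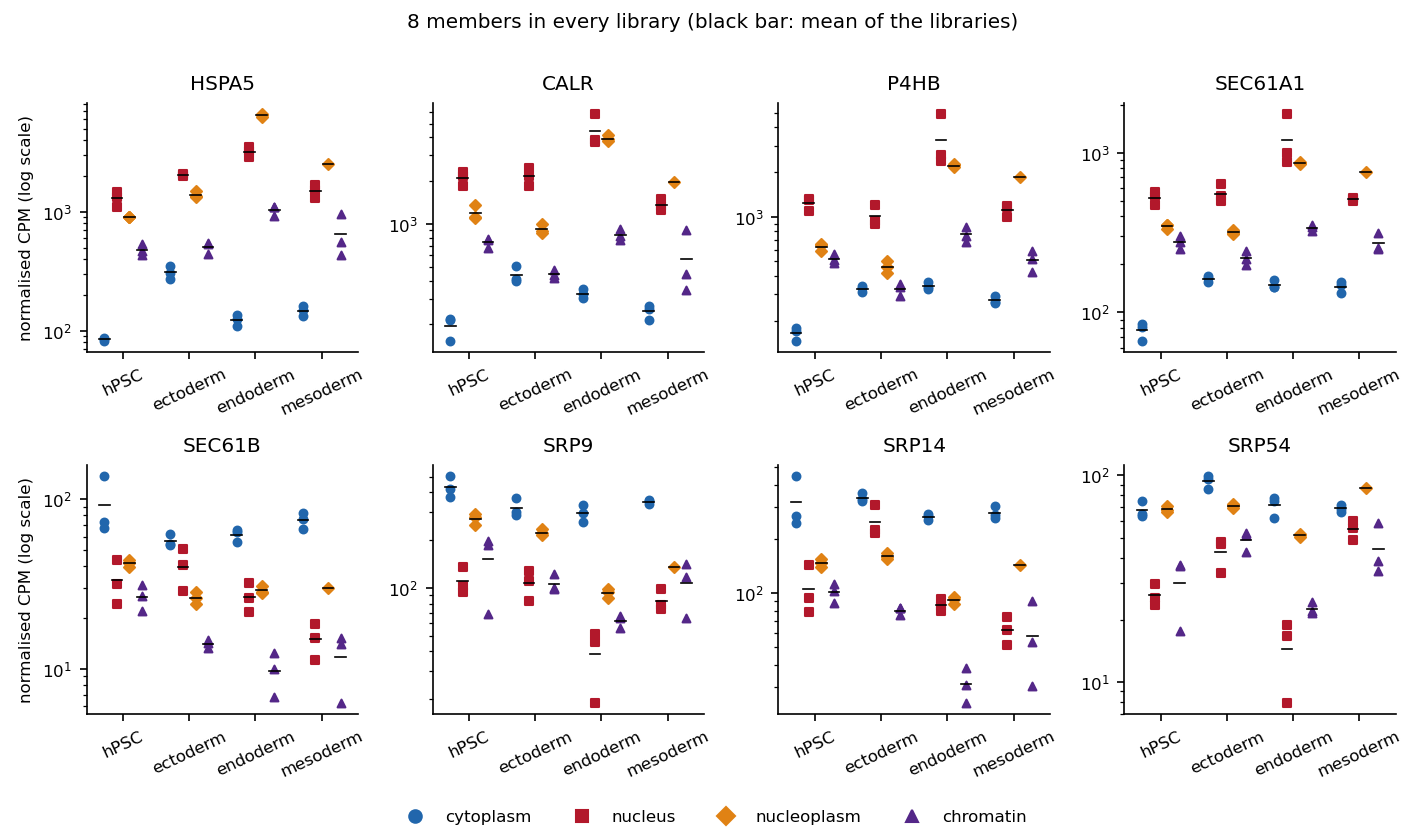
Normalised CPM (log axis) of 8 members in each library by cell type and fraction, with a bar at the mean of the libraries. Cytoplasm points lie below nucleus points for HSPA5, CALR, P4HB and SEC61A1, and above them for SEC61B, SRP9, SRP14 and SRP54, in each cell type.

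Within the translocon the direction differed by subunit. SEC61A1 spans the membrane many times and forms the channel itself, while SEC61B and SEC61G are small tail-anchored subunits beside it. SEC61A1 stood at 66.2, 81.1 and 84.3 normalised CPM in hPSC cytoplasm and 470.1, 532 and 566 in nucleus. In ectoderm it stood at 169.6, 164 and 154 and 495, 632 and 534. The channel subunit was thus low in every cytoplasm library of both. In endoderm, where nucleus library 1 was again the highest, the values were 158, 144 and 144 and 1743, 874 and 988, and in mesoderm 154, 131 and 148 and 518, 512 and 499. Its log2 changes were -2.76 ± 0.13, -1.77 ± 0.12, -3.01 ± 0.23 and -1.82 ± 0.16, all called. SEC61A1 overlaps RUVBL1, which lies on the opposite strand, so a part of its reads is uncertain.

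SEC61B ran the other way. hPSC libraries held 136, 73.0 and 67.6 normalised CPM in cytoplasm and 43.8, 24.2 and 31.4 in nucleus. Ectoderm libraries held 53.2, 54.2 and 62.2 and 28.5, 50.5 and 40.8, the narrowest margin of the 4 cell types. Endoderm libraries were apart at 63.6, 55.7 and 65.5 against 31.8, 26.0 and 21.4. Mesoderm libraries were the furthest apart, at 66.6, 75.6 and 82.4 against 11.3, 18.2 and 15.1. SEC61B was higher in cytoplasm by 1.47 ± 0.26, 0.49 ± 0.16, 1.22 ± 0.20 and 2.34 ± 0.28 on the log2 scale, with an adjusted p of 0.0222 in ectoderm. SEC61G was higher in mesoderm (2.89 ± 0.46), hPSC (2.43 ± 0.41) and endoderm (1.64 ± 0.24), but not called in ectoderm (0.28 ± 0.32). Left without the 2 tail-anchored genes, the ER-directed class had class gaps of -3.66, -1.84, -4.34 and -2.25 in the same order of cell types. SEC62 and SEC63, which help short and other chains through the channel after translation, were higher in endoderm cytoplasm (1.36 ± 0.24 and 0.69 ± 0.20). SEC62 was also higher in ectoderm (0.61 ± 0.24), and SEC63 was lower in hPSC (-1.03 ± 0.32).

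Oligosaccharyltransferase divided by the size of its subunits. STT3A, the catalytic subunit that acts as the chain enters, had log2 changes of -3.43 ± 0.13, -2.41 ± 0.12, -3.57 ± 0.18 and -2.70 ± 0.20. STT3B, its paralogue that acts on sites that were skipped, had -2.29 ± 0.20, -1.05 ± 0.13, -0.98 ± 0.22 and -1.49 ± 0.22. RPN1, a large glycoprotein subunit, lay between -3.76 in endoderm and -2.33 in mesoderm. RPN2, its partner in the membrane, had -3.13 ± 0.13, -1.78 ± 0.13, -3.16 ± 0.18 and -2.43 ± 0.23. DDOST, a further large subunit, had -3.05 ± 0.12, -1.41 ± 0.15, -2.82 ± 0.20 and -1.46 ± 0.23. MAGT1, an oxidoreductase subunit that serves STT3B, had -3.25 ± 0.22, -1.37 ± 0.13, -2.69 ± 0.18 and -2.30 ± 0.32. All of these were called. The small subunits did not follow. OSTC was higher in cytoplasm in ectoderm (0.48 ± 0.12), endoderm (0.52 ± 0.19) and mesoderm (1.31 ± 0.32) and was not called in hPSC (-0.10 ± 0.23). DAD1 was lower in ectoderm (-0.40 ± 0.15) and endoderm (-0.61 ± 0.20, but 0.14 under library totals) and higher in mesoderm (0.89 ± 0.29, but -0.34 on TPM values). STT3A shares bases with CHEK1 on its own strand, and OSTC has a processed pseudogene in the tables, so their counts are uncertain to that extent.

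Most genes of signal peptidase, which removes signal peptides, differed little. Its 5 genes had median log2 changes of -0.50, -0.12, -0.19 and 0.47, and 3, 2, 1 and 0 of 5 were called lower in hPSC, ectoderm, endoderm and mesoderm, where 30.3%, 26.5%, 35.4% and 31.4% of all genes were. SPCS3, the accessory subunit, had the largest, -1.72 ± 0.17 in hPSC. In mesoderm SPCS1 (1.09 ± 0.31) and the catalytic subunit SEC11A (0.84 ± 0.27) were higher in cytoplasm, though both turned sign on TPM values, at -0.0939 and -0.33. SPCS2, another accessory subunit with a pseudogene copy in the tables, had -0.67 ± 0.17, -0.33 ± 0.13, -0.20 ± 0.18 and 0.00 ± 0.39. SEC11C was called in none of the 4, with values of -0.13 ± 0.16, -0.12 ± 0.23, -0.19 ± 0.24 and 0.47 ± 0.33. The TRAP complex, which sits beside the channel and aids some signal peptides, had 4, 2, 3 and 1 of 4 genes lower, against the same shares. Its SSR2 ranged from -2.25 ± 0.19 in endoderm to -0.12 ± 0.24 in mesoderm, where it was not called. SSR1 had -1.41 ± 0.26, 0.05 ± 0.15, -1.10 ± 0.17 and -1.20 ± 0.19, and ectoderm was not called. SSR4 had -0.67 ± 0.16, -0.75 ± 0.17, -1.64 ± 0.20 and 0.35 ± 0.31, not called in mesoderm. SSR3, which has no signal peptide, had -0.32 ± 0.13, -0.03 ± 0.10, 0.30 ± 0.15 and 0.67 ± 0.31, called in hPSC alone (adjusted p = 0.046, and 0.118 under library totals). The receptor subunits SRPRA and SRPRB were both lower in hPSC (-1.74 ± 0.13 and -1.82 ± 0.14), ectoderm (-1.06 ± 0.10 and -1.39 ± 0.12) and endoderm (-1.79 ± 0.18 and -1.91 ± 0.17). In mesoderm SRPRA was lower (-1.20 ± 0.12) and SRPRB was not called (-0.51 ± 0.29).

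The SRP proteins formed the other pole. SRP9 and SRP14 pair on the Alu domain of the SRP RNA, where they slow the ribosome. SRP9 held 504, 418 and 376 normalised CPM in hPSC cytoplasm and 135, 94.6 and 104 in nucleus, and 367, 289 and 303 against 129, 82.5 and 111 in ectoderm. Every cytoplasm library was above every nucleus library. Its endoderm values were 296, 334 and 261 in cytoplasm and 19, 51.4 and 45.8 in nucleus, with nucleus library 1 the lowest, and its mesoderm values 354, 356 and 336 and 77.9, 98.3 and 74.2. The rise was 3.89-fold in hPSC (adjusted p = 6.86e-05), 2.98-fold in ectoderm, 7.65-fold in endoderm and 4.18-fold in mesoderm. SRP9 and SRP14 each have a pseudogene copy in the tables that can share reads with them.

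For SRP14 the hPSC libraries gave 447, 269.6 and 245 in cytoplasm and 143, 78.8 and 94.3 in nucleus, in normalised CPM. Those of ectoderm gave 325, 332 and 361 and 216, 307 and 225, apart by little. Those of endoderm gave 277, 255 and 267 and 93.4, 79.2 and 84.4. The fractions were well apart in endoderm, as in mesoderm, where SRP14 held 261, 273 and 304 and 51.5, 73.4 and 62.1. Log2 changes were 1.6 ± 0.24, 0.44 ± 0.12, 1.64 ± 0.16 and 2.17 ± 0.31, all called.

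SRP54 is the GTPase subunit that grips the signal sequence. Its values were 75.0, 63.4 and 64.9 in hPSC cytoplasm and 29.7, 25.4 and 23.7 in nucleus, in normalised CPM. They were 99.1, 85.7 and 95.9 against 46.8, 33.7 and 47.5 in ectoderm and 77.9, 75.4 and 62.4 against 7.91, 18.9 and 16.6 in endoderm. In these 3 cell types each cytoplasm library was above each nucleus library, and endoderm nucleus library 1 was the lowest of all. In mesoderm 66.1, 69.0 and 72.3 stood against 55.9, 59.9 and 48.8, also without overlap, but the change of 0.33 ± 0.19 was not called. In the other 3 it was 1.36 ± 0.22, 1.14 ± 0.14 and 2.30 ± 0.24. In hPSC nucleoplasm SRP54 held 68.2, 66.3 and 71.1 normalised CPM, which overlapped its cytoplasm libraries. SRP19, which readies the SRP RNA for SRP54, rose by 1.46, 1.17, 2.33 and 1.02. SRP68 and SRP72, the large pair that binds the RNA beside it, rose less in hPSC (0.67 ± 0.11 and 0.40 ± 0.15), and SRP68 was lower in ectoderm cytoplasm (-0.40 ± 0.10, adjusted p = 0.00432). In endoderm they rose by 0.70 ± 0.12 and 1.87 ± 0.22. In mesoderm SRP68 was not called (0.22 ± 0.17), and SRP72 was higher by 0.56 ± 0.19 but stood at -0.57 on TPM values. SRP19 shares bases with ZRSR2P1 on its own strand and REEP5 on the other, both in the tables, so its counts are uncertain. In hPSC 19.9% of them lay on transcripts without an Ensembl name, the highest share of any member. With Ensembl transcripts alone SRP19 kept its call in each cell type. The SRP RNA itself, RN7SL1, was higher in cytoplasm in each cell type, by 4.34 ± 0.52, 4.75 ± 0.58, 4.27 ± 0.60 and 6.39 ± 0.71, but it has near-identical copies and its counts are uncertain.

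The order of levels between members turned over between the fractions. On the TPM scale, which allows genes of different length to be compared, SEC61G led in hPSC cytoplasm at 624 ± 202 (mean ± SD, n = 3), followed by SRP14 at 367 ± 58.9, SRP9 at 347 ± 8.17 and SEC61B at 304 ± 67.5. The spread of SEC61G reached that of SRP14, and those of SRP14, SRP9 and SEC61B overlapped. In hPSC nucleus CALR led at 1685 ± 163 TPM, followed by PDIA3 at 1105 ± 138 and P4HB at 727 ± 68.5, each apart from the next by more than their SDs. CALR also led in nucleus of ectoderm at 1214 ± 122, endoderm at 3013 ± 266 and mesoderm at 1949.7 ± 278 TPM. The cytoplasm leader was SRP14 in ectoderm at 465 ± 79.6, within the spread of SEC61G at 426 ± 98.9, and SEC61G in endoderm and mesoderm at 503 ± 51.1 and 449 ± 112 TPM. In both, libraries of SEC61G overlapped those of SRP14, at 450.2 ± 29.2 and 352 ± 16.4. Summed over the 7 luminal folding factors, TPM was 478 ± 111 in hPSC cytoplasm and 5617 ± 561 in nucleus. Summed over the 6 SRP proteins it was 858 ± 35.1 and 386 ± 78.1. Mean SRP sums of hPSC nucleoplasm (643 ± 40.9) and chromatin (613 ± 149) were above that of nucleus. Ectoderm had 469 ± 70.8 in nucleus, 720 ± 53.6 in nucleoplasm and 636 ± 49.2 in chromatin. Endoderm had 211 ± 52.0, 334 ± 41.7 and 260 ± 33.9 in the same order. Mesoderm did not follow, with 559 ± 91.2 in nucleus and 552 ± 192 in chromatin.

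Coding length went along with the difference among the ER-directed members. Across these 31 genes, Spearman's rho between the number of codons and the log2 change of cytoplasm over nucleus was -0.76 for hPSC, -0.68 for ectoderm, -0.62 for endoderm and -0.84 for mesoderm. These genes share libraries and are not independent, so rho is a description. The trend was not particular to this class, since rho among the 6 SRP proteins was -1.0, -0.77, -0.54 and -0.77. The 11 ER-directed members under 200 codons had median log2 changes of -0.32, -0.03, -0.13 and 0.84 in the same order, and the 20 longer ones -2.98, -1.58, -2.78 and -2.17. In hPSC the longer SRP proteins SRP54 (504 codons), SRP68 (627) and SRP72 (671) lay above each ER-directed member over 400 codons. That did not hold elsewhere, since SRP68 (-0.40 ± 0.10) was below SEC63 (-0.09 ± 0.27, 760 codons) in ectoderm and level with it in endoderm (0.70 ± 0.12 and 0.69 ± 0.20). Over all genes of hPSC, those with a hydropathy of 1.6 or more over 19 codons had a median of 0.16 under 200 codons and -1.10 at 600 or more, and genes below 1.6 had 1.20 and -0.03. Genes at or above 1.6 had -0.16 and -1.18 in endoderm and 0.87 and -1.13 in mesoderm for the same lengths. Those below 1.6 had 0.957 and 0.0038 in endoderm and 1.74 and -0.28 in mesoderm. Ectoderm had little or no such trend, with -0.20 and -0.47 at or above 1.6 and 0.06 and 0.07 below it. Over all lengths the 4207 genes at or above 1.6 had a median of -0.87 and the 8016 below it 0.43 in hPSC. The medians were -0.42 and 0.02 in ectoderm, -0.90 and 0.42 in endoderm and -0.65 and 0.35 in mesoderm. Taken over all lengths, the ER-directed members thus lay on the side of other genes with such stretches, with medians further from 0. For the 11 members under 200 codons this did not hold in 3 cell types. Their medians of -0.03, -0.13 and 0.84 in ectoderm, endoderm and mesoderm stood beside -0.20, -0.16 and 0.87 for such genes of that length. In hPSC they were lower, at -0.32 against 0.16.

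**Figure D3:**
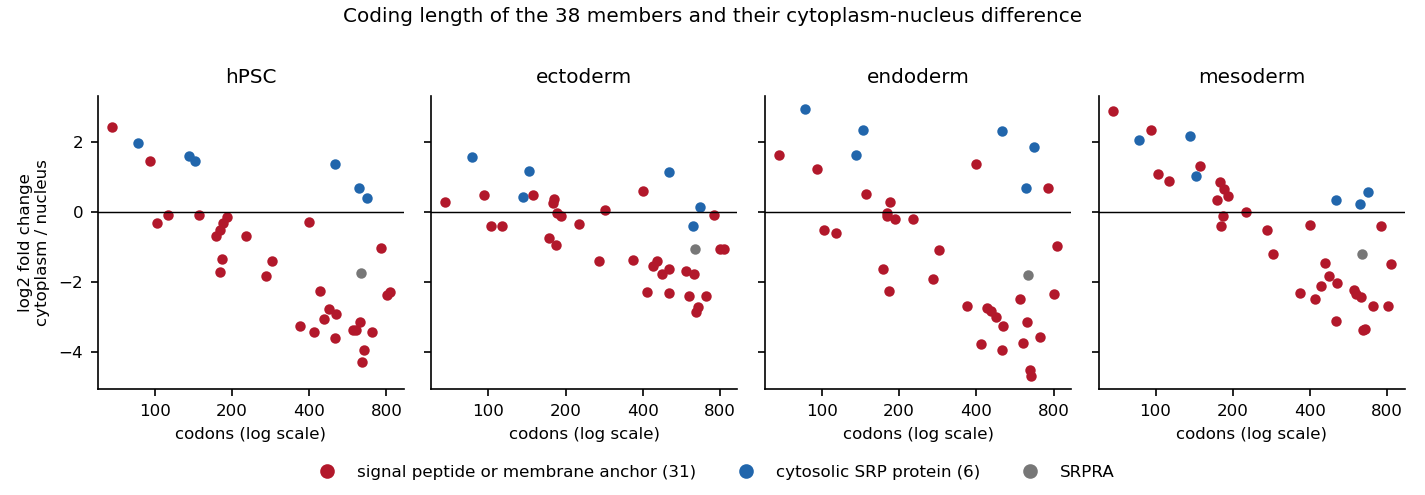
Log2 fold change of cytoplasm over nucleus (vertical) against the number of codons (log axis) for the 38 members in 4 cell types. Red ER-directed members slope down with length in each panel, and the 3 blue SRP proteins over 500 codons lie above red members of like length in hPSC.

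Other genes of the same pathways were counted from lists drawn up by function. The lists were chosen with earlier results of these data known, so they are no independent check. Their counts stand against shares of all genes of 35% higher and 30.3% lower for hPSC, 27.2% and 26.5% for ectoderm, 34.3% and 35.4% for endoderm, and 31.8% and 31.4% for mesoderm. Of 31 other genes of ER folding and ER stress, 2 were higher and 26 lower in hPSC cytoplasm, with a median of -2.02. Of 30 tested in ectoderm 2 were higher and 20 lower. Endoderm had 0 higher and 25 lower of 30, while mesoderm had 2 and 22 of 31. GANAB, a glucosidase that trims new sugar chains, had log2 changes of -4.11 ± 0.15, -2.82 ± 0.14, -5.17 ± 0.30 and -3.2 ± 0.21. ATF4, a stress transcription factor with no signal peptide, was higher in hPSC (1.16 ± 0.16), ectoderm (0.46 ± 0.11) and mesoderm (1.07 ± 0.19), and stood at -0.00 ± 0.14 in endoderm. Among 21 other genes of ER insertion, 6 were higher and 11 lower in hPSC, 2 and 10 in ectoderm, 5 and 11 in endoderm, and 10 and 9 in mesoderm. EMC1, the large membrane subunit of an insertase complex, had log2 changes of -3.65 ± 0.17, -1.84 ± 0.10, -4.79 ± 0.23 and -2.94 ± 0.14. EMC2, a subunit of the same complex that lies in the cytosol, was higher by 2.63 ± 0.33, 2.81 ± 0.28 and 3.58 ± 0.34 in hPSC, ectoderm and endoderm, and stood at 1.40 ± 0.19 in mesoderm. Of 19 chaperones of the cytosol, 18 were higher and 0 lower in hPSC, 6 and 6 in ectoderm, 15 and 1 in endoderm, and 9 and 1 in mesoderm. With these chaperones in place of the SRP proteins, the class gap was -2.64, -1.13, -3.04 and -1.65.

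Inside the nucleus, members were lower in chromatin than in nucleoplasm, and here the 2 classes lay closer together than in cytoplasm against nucleus. In hPSC 0 members were higher and 26 lower, against 17.1% and 13.3% of all genes. In ectoderm 0 were higher and 38 lower, against 18.5% and 25.7%. In endoderm 0 were higher and 36 lower, against 22.9% and 30.6%. HSP90B1 had the largest fall of the 38 in each, -1.65 ± 0.34, -2.04 ± 0.20 and -3.31 ± 0.25. These counts depend on scaling. With library totals they were 0 higher and 17 lower in hPSC, 0 higher and 30 lower in ectoderm and 0 higher and 33 lower in endoderm, and on TPM values 2 higher and 9 lower, 0 higher and 4 lower and 0 higher and 32 lower. The share of calls over all genes that were higher in chromatin moved with them, from 56.3%, 41.8% and 42.8% to 86.5%, 71.0% and 73.8% under library totals and 96.7%, 96.5% and 76.0% on TPM values. The class gap, which such a shift leaves in place, was -0.15 in hPSC (-0.07 without chromatin library 2), -0.34 in ectoderm and -1.36 in endoderm. In endoderm HSPA5 held 6619.6, 6253 and 6508 normalised CPM in nucleoplasm and 1090.1, 1104 and 931 in chromatin, with no overlap. HSP90B1 held 7948, 7479.8 and 7752 and 864, 760.3 and 709 there, 1379.8, 1422 and 1531 and 360.2, 395 and 300.5 in ectoderm, and 1674, 1715 and 1457 and 742, 617 and 189 in hPSC. Among SRP proteins SRP9 held 98.2, 87.0 and 94.3 in endoderm nucleoplasm and 67.1, 56.1 and 64.4 in chromatin (-0.57 ± 0.25). The mitochondrial share moved the same way, from 22.2 ± 0.785% of TPM in nucleoplasm (SD, n = 3) to 12.3 ± 1.81% in chromatin of hPSC, from 18.2 ± 2.27% to 6.43 ± 1.49% in ectoderm and from 25.0 ± 3.61% to 3.09 ± 0.263% in endoderm, and its part in the result was not tested. Mesoderm has 1 nucleoplasm library, so its chromatin was not tested against it.

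Centred within each cell type, the same gap can be read in each library. Here 0 stands for each gene's mean over the libraries of its cell type, so low values in cytoplasm raise the other fractions. The signs thus restate the contrasts above and are no further test. The gap was below 0 in 12 of 12 cytoplasm libraries and above 0 in 12 of 12 nucleus libraries. It was also above 0 in 10 of 10 nucleoplasm libraries, though only 0.04 in ectoderm nucleoplasm library 2. In chromatin it was above 0 in 5 and below 0 in 7 of 12. Cytoplasm libraries ran from -2.41 to -0.87 and nucleus libraries from 0.68 to 2.30, so the fractions did not overlap. Endoderm nucleoplasm (1.28 ± 0.10, SD, n = 3) was close to endoderm nucleus, whereas hPSC nucleoplasm (0.34 ± 0.06) lay below hPSC nucleus (1.38 ± 0.29).

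**Figure D4:**
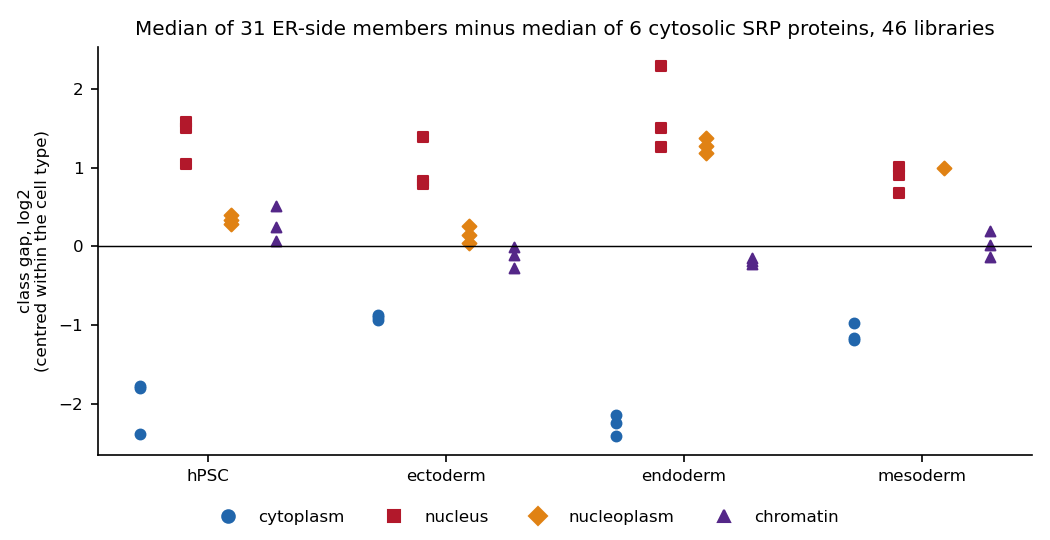
Class gap (log2, median of 31 ER-directed members minus median of 6 SRP proteins, centred within the cell type) in each of the 46 libraries by fraction. Cytoplasm libraries lie below 0 and nucleus libraries above 0 in all 4 cell types, with chromatin near 0.

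Between cell types, the ER-directed members were mostly higher in the cytoplasm of the derived cells than in hPSC cytoplasm. Each derived cell type was compared with the same hPSC libraries, and its transcript assembly differs along with the cell type, so the 2 cannot be told apart. In such bulk samples fewer cells of a type and less RNA per cell cannot be told apart either.
Ectoderm cytoplasm had 26 of 38 members higher and 4 lower than hPSC, against 38% and 37.9% of all 10679 genes. Endoderm had 25 and 3, against 29.6% and 28.6%, and mesoderm 18 and 5, against 34.6% and 33.4%. Of the 31 ER-directed members 24, 22 and 18 were higher, and of the 6 SRP proteins 1, 2 and 0. Members higher in all 3 numbered 15, all of them ER-directed, where 16% of genes were. All 8 folding factors were higher in ectoderm, 6 of 8 in endoderm and 3 of 8 in mesoderm.

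HSPA5 had the largest rise in ectoderm cytoplasm. Scaled over the cytoplasm libraries, it held 96.1, 96.5 and 103 CPM in hPSC and 387, 295 and 331 in ectoderm, a log2 change of 1.77 ± 0.12. SSR1, the calcium-binding subunit of TRAP, held 32.8, 30.9 and 30.7 in hPSC and 114, 93.6 and 106 in ectoderm (1.73 ± 0.12). Neither gene's libraries overlapped on this scale. On TPM values those of SSR1 did, with 7.96, 9.12 and 9.84 in hPSC against 13.7, 8.55 and 13.8 in ectoderm. In endoderm P4HB led, with 164, 198 and 209 CPM in hPSC and 492, 439.7 and 462 in endoderm (1.28 ± 0.10). SPCS3 led in mesoderm, with 43.7, 46.9 and 48.2 in hPSC and 111, 110.3 and 96.5 in mesoderm (1.19 ± 0.17). SEC11C, the other catalytic subunit of signal peptidase, went the other way in all 3, with 35.3, 29.6 and 25.0 CPM in hPSC, 11.7, 10.4 and 13.1 in ectoderm, 14, 14.7 and 17.3 in endoderm and 8.95, 11.7 and 8.12 in mesoderm. Its log2 changes were -1.34 ± 0.17, -0.96 ± 0.17 and -1.63 ± 0.17. SRP9 and SRP19 were also lower in all 3, SRP9 with log2 changes of -0.52 ± 0.12, -0.31 ± 0.12 and -0.43 ± 0.12. On TPM values SRP19 turned sign in ectoderm (0.18) and endoderm (0.77), SSR1 in endoderm (-0.41) and mesoderm (-0.46), RPN2 in endoderm (-0.0182) and SEC62 in mesoderm (-0.23). SSR1 and RPN2 are among the 15 that were higher in all 3.

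Other genes of ER folding and stress went the way of the ER-directed members in cytoplasm. The shares of all genes given above for these comparisons hold for the lists too. Of 29 tested, 18 were higher and 7 lower in ectoderm, 19 and 2 in endoderm, and 16 and 3 in mesoderm. DNAJB9, a co-chaperone of HSPA5, was higher by 2.10 ± 0.16 in ectoderm and 1.62 ± 0.16 in mesoderm. XBP1, a transcription factor of the unfolded protein response, was higher by 0.99 ± 0.10 in endoderm. ERO1A, which oxidises disulfide isomerases, was lower there, with a log2 change of -4.74 ± 0.19. Of the 19 chaperones of the cytosol, 1 was higher and 14 lower in ectoderm, 0 and 9 in endoderm, and 1 and 16 in mesoderm, so this list moved the other way.

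In nucleus the picture against hPSC differed by cell type. Ectoderm nucleus had 6 members higher and 13 lower, against 28.7% and 28.9% of all 10655 genes. Endoderm nucleus had 14 and 8, against 28.1% and 29.3%, and mesoderm nucleus 3 and 18, against 26.0% and 28.0%. The 14 that were higher in endoderm were all ER-directed, and SSR1 among them stood at -1.40 on TPM values. HSPA5 rose there by 1.43 ± 0.18, with 1106, 1439 and 1284 CPM (scaled over the nucleus libraries) in hPSC and 3650.2, 3528 and 3133 in endoderm. P4HB rose by 1.54 ± 0.25, with 1094, 1258 and 1272 against 5079, 2581 and 2849. In ectoderm nucleus PDIA3, a disulfide isomerase that works with CALR and CANX, was lower, with 1691, 2052 and 1830.2 CPM in hPSC and 860.1, 918 and 878 in ectoderm (-1.07 ± 0.17). SEC11C was lower in nucleus as in cytoplasm, at -1.49 ± 0.24, -1.0 ± 0.24 and -2.17 ± 0.25, and was 1 of 38 members lower in all 3, no larger a share than the 5.06% of all genes. Scaling matters here. With library totals the endoderm split was 10 higher and 14 lower, with 28.5% of all calls higher in place of 48.9%. On TPM values the mesoderm split turned to 15 higher and 1 lower, with 88.4% in place of 48.2%, and in ectoderm it was 4 higher and 20 lower, with 29.4% in place of 49.9%.

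**Figure D5:**
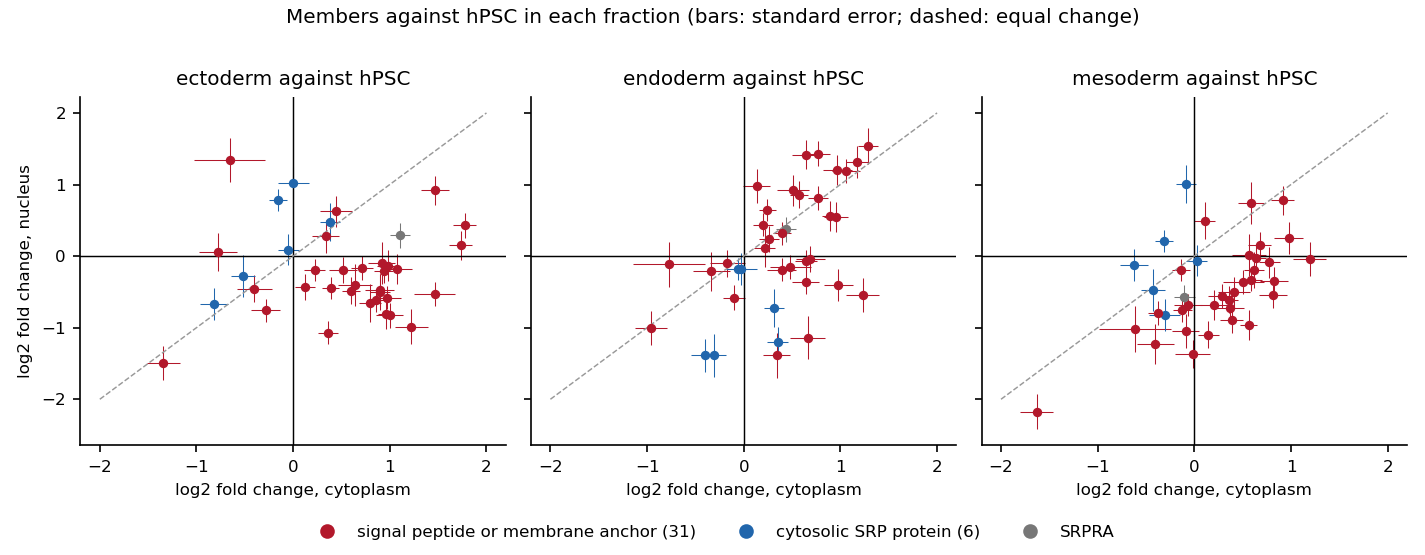
Log2 fold change of the 38 members against hPSC in cytoplasm (horizontal) and in nucleus (vertical) for 3 derived cell types, with standard errors. Most red points lie right of 0, and in ectoderm and mesoderm most lie below the dashed line of equal change.

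Whether the cytoplasm-nucleus difference itself changed was tested as an interaction. A positive value means a higher ratio of cytoplasm to nucleus than in hPSC. In ectoderm 25 members were called higher and 3 lower, against 27.4% and 24.5% of all 10687 genes. In endoderm 11 and 4 were, against 19.6% and 18.3%, and in mesoderm 25 and 1, against 18.8% and 6.89%. CANX rose in all 3, by 1.89 ± 0.23, 0.97 ± 0.23 and 1.23 ± 0.23, and so did SSR3, SPCS3, STT3B and OSTC, where 2.28% of genes did. On TPM values STT3B stood at -0.00697 in mesoderm. HSPA5 was higher in ectoderm (1.41 ± 0.20) and mesoderm (0.64 ± 0.20) and lower in endoderm (-0.68 ± 0.20), but on TPM values its mesoderm change was -0.19. All 8 folding factors were higher in ectoderm, 1 of 8 in endoderm and 6 of 8 in mesoderm. The class gap of this change was 1.30 in ectoderm, -0.98 in endoderm (-0.62 without nucleus library 1) and 1.08 in mesoderm. The fraction controls moved in ectoderm as well, where all 6 cytoplasmic control mRNAs were lower and 3 of 3 nuclear control RNAs higher in the same test, and their part in the result was not tested. The mesoderm counts rest on the scaling, with 14 higher and 2 lower under library totals and 4 higher and 5 lower on TPM values, while the class gap was 1.05 and 1.05. Over all genes the share of calls that were higher moved from 73.1% to 36.9% and 5.29%. In endoderm library totals gave 20 higher and 0 lower, with 89.9% of all calls higher in place of 51.8%.

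The promoters of some folding factors share a known stress motif. The ER stress element, through which ATF6 and its partners raise chaperone genes under ER stress, was searched as CCAAT, any 9 bases and CCACG, on both strands from 250 bases before to 50 after the start (RefSeq, GRCh38.p14). Windows were found for 33 of 38 members. The motif was in 4 of them (12.1%), those of HSPA5, CALR, CANX and HSP90B1, and in 22 of 27305 promoters of all genes (0.0806%). The HSPA5 and HSP90B1 windows are given on the gene's strand, with the motif or its reverse complement in capitals, since they show 1 and 2 copies.
HSPA5, chr9:125241294-125241593, minus strand: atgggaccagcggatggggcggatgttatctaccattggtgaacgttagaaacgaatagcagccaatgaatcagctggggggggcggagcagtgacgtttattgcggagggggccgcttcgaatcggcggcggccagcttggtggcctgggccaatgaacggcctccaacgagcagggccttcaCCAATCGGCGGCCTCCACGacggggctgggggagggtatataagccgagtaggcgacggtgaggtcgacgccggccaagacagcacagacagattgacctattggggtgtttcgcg
HSP90B1, chr12:103930160-103930459, plus strand: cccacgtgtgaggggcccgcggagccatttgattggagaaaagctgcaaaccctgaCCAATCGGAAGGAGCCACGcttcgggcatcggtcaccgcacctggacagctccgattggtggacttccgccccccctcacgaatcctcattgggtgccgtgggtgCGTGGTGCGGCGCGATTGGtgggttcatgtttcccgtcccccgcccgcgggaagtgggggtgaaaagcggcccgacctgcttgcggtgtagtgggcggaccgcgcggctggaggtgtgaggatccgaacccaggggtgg
A match is a description of these letters and not of a factor bound there. Since the motif is one already known for chaperone genes, the 2 shares describe this set and are no test of enrichment. The 4 genes with the motif changed in ectoderm cytoplasm against hPSC by 1.77 ± 0.12 (HSPA5), 1.08 ± 0.15 (CALR), 1.00 ± 0.14 (CANX) and 0.80 ± 0.11 (HSP90B1). The other 4 folding factors changed there by 0.36 ± 0.10 (PDIA3), 0.97 ± 0.15 (PDIA4), 0.39 ± 0.09 (PDIA6) and 0.90 ± 0.10 (P4HB), so the ranges overlapped. HSPA5 had the largest rise of the members in ectoderm cytoplasm. In endoderm it was P4HB (1.28 ± 0.10) and in mesoderm SPCS3 (1.19 ± 0.17), neither of them among the 4.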

How the data were processed

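RNA was sequenced in 46 libraries from fractions of H1 cells and 3 derived cell types. The submitters' processing notes name STAR, RSEM and build hg38, with no order or settings given, and each cell type has tables on its own transcript assembly. The values used are counts per transcript as deposited by the authors, all whole numbers, which may be rounded RSEM estimates. TPM values per transcript, also deposited by the authors, gave the levels and an alternative test. Columns were matched to samples by name, with the abbreviation Nei read as nucleus, and 1 column that matched no sample was left out.

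Rows were summed per Ensembl gene. Genes were tested with edgeR 4.0.16 (TMM scaling, quasi-likelihood F-test, filterByExpr with a minimum count of 10), with 1 fit per cell type over its fractions and 1 fit each for cytoplasm, nucleus and their interaction over the genes common to all tables, and with Benjamini-Hochberg adjustment over all genes tested. In the mesoderm fit the smallest group, 1 library, set the filter. Alternatives were library totals as scaling, DESeq2 1.42.0, no filter, limma 3.58.1 on log2(TPM + 1), Ensembl transcripts alone, the replicate number as a block, other class definitions and leaving out each library. Models were tested on simulated data. Member and list genes were chosen with earlier results of these data known. All members may be named. Per-library values were fixed for 8 of them, and other genes are the leading changes of their list with a mean of at least 10 CPM. Hydropathy came from GENCODE 29 coding sequences translated by script, in place of the RefSeq proteins first planned.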

Additional observations from a re-analysis of the deposited data

Results flagged for a closer look

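The cytoplasm-nucleus difference of the members in each derived cell type was tested against that in hPSC, and these results are given here since 2 cell types differed in a test of the difference itself (edgeR's quasi-likelihood interaction test, adjusted p under 0.05). In ectoderm 28 of 38 members were called, with the largest rise for SPCS3 (2.27 ± 0.33) and the largest fall for SEC61G (-1.94 ± 0.53). In endoderm 15 were called, led by SEC63 (1.77 ± 0.39) and SSR4 (-0.88 ± 0.27). In mesoderm 26 were called, led by DDOST (1.65 ± 0.21) and SRP54 (-0.96 ± 0.29). Of all 10687 genes tested, 27.4% were called higher and 24.5% lower in ectoderm. These shares were 19.6% and 18.3% in endoderm, and 18.8% and 6.89% in mesoderm. The endoderm count of 15 was close to what its shares of all genes give for 38 genes. The 3 tests share the hPSC libraries. Each cell type's tables rest on its own assembly, and the 2 cannot be told apart.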

How the results depend on the processing

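Of 5634 re-tests of called members over all comparisons and alternatives, 5094 kept their direction and call, 488 lost the call and 52 changed sign. Of 468 re-computed counts of members called and class gaps, 442 stayed within their limits (1.5 times a count, 1 SD of a gap) and 26 did not. The counts that moved were those of hPSC chromatin against nucleoplasm (17 with library totals, 11 on TPM values), ectoderm chromatin (4 on TPM values) and the mesoderm change of the cytoplasm-nucleus difference (16 with library totals, 9 on TPM values). For each the cause was not tested.

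On TPM values the class gap was 0.67 for ectoderm and 0.45 for endoderm against hPSC in cytoplasm, and 0.69 for endoderm and -0.24 for mesoderm in nucleus. With cytosolic chaperones as comparator it was -2.64, -1.13, -3.04 and -1.65 for cytoplasm against nucleus in hPSC, ectoderm, endoderm and mesoderm, 1.48, 0.82 and 1.19 for the derived types against hPSC in cytoplasm, -0.20 for mesoderm in nucleus, 1.91 and -0.26 for the change in ectoderm and endoderm, and -1.04 for endoderm chromatin. Without the tail-anchored genes it was -3.66 in hPSC and -2.25 in mesoderm. Leaving out 1 library gave gaps of 0.47 to 0.69 for endoderm and 0.52 to 0.81 for mesoderm against hPSC in cytoplasm, and -4.26 to -3.57 for endoderm cytoplasm against nucleus, and for the change in endoderm -1.27 to -0.62.

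Of the 52 changes of sign, 4 came with library totals and the others on TPM values, of which 12 were in mesoderm nucleus against hPSC, 9 in ectoderm chromatin, 7 in hPSC chromatin and 7 in the mesoderm change. Among the 52, with library totals, were DAD1 (0.14) and SPCS1 (0.21) in endoderm and SPCS2 (0.0134) in ectoderm, for cytoplasm against nucleus. On TPM values there were DAD1 (-0.34), SEC11A (-0.33), SPCS1 (-0.0939) and SRP72 (-0.57) in mesoderm cytoplasm against nucleus, SPCS1 (0.53) in mesoderm nucleus against hPSC, and in cytoplasm against hPSC SRP19 in ectoderm (0.18) and endoderm (0.77) and SSR1 in endoderm (-0.41) and mesoderm (-0.46).

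Over all genes, hPSC chromatin against nucleoplasm had 4302 genes called, 7777 on TPM values, 2621 with Ensembl transcripts alone and 2608 without nucleoplasm library 1. Ectoderm cytoplasm against nucleus had 8589 and 5337 on TPM values, ectoderm chromatin 7053 and 3871 with Ensembl transcripts alone, the endoderm change 4054 and 2659 with those, and the mesoderm change 2740 and 4539 on TPM values. Library totals shifted the median of all genes by 0.23, 0.29 and 0.58 for chromatin in hPSC, ectoderm and endoderm, by -0.38 and 0.19 for endoderm and mesoderm nucleus against hPSC, and by 0.50 and -0.34 for the change in endoderm and mesoderm.

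In 0 of 16 comparisons did every pair of same-numbered libraries correlate over 0.1 in its deviations (range -0.51 to 0.43), so the main fits have no block. This rule cannot show that such libraries are unrelated. For cytoplasm against nucleus, 2 of 3 pairs were over 0.1 in hPSC and in ectoderm. With the replicate block, 32, 29, 33 and 27 members were called for cytoplasm against nucleus in hPSC, ectoderm, endoderm and mesoderm, with class gaps of -3.22, -1.83, -4.00 and -1.98, and the block changed no count of members by more than 1.5 times. The block fit of mesoderm leaves out the nucleoplasm library, whose column has no number.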

Other observations

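The single mesoderm nucleoplasm library was in no comparison. It held 2501 normalised CPM of HSPA5, 1967 of CALR, 1847 of P4HB and 759 of SEC61A1, each above the 3 mesoderm nucleus libraries. On TPM values the order turned over, with 808 of HSPA5, 1435 of CALR, 1005 of P4HB and 272 of SEC61A1, each below the 3 nucleus libraries (of which the lowest held 893, 1631, 1035 and 333). SRP9 stood at 135 and SRP54 at 87.1, and its class gap of 0.99 lay inside the range of mesoderm nucleus (0.68 to 1.00). The mesoderm chromatin libraries, not tested, held 564, 436 and 966 normalised CPM of HSPA5 and 118, 64.8 and 142 of SRP9. Chromatin library 3 was the highest for HSPA5, CALR, P4HB and SEC61A1, and it held a mitochondrial share of 16.2% of TPM, against 3.35% and 2.34% in the other two.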
